A study of Homo sapiens with 12 samples.

Results

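Genes of HK-2 cells, an immortalised human line of renal proximal tubule epithelium, were compared between 48 h and 24 h of exposure to Nnm, a compound given at what the labels call a low dose. The comparison rests on the 6 Nnm arrays (3 per time, labelled as biological replicates) of the 12 arrays in the series, and each 48 h array was paired with the 24 h array of the same replicate number. The other 6 arrays hold control cells given vehicle for 24 h or 48 h (3 per time), and their change over the same interval, measured the same way, is given beside that of the treated cells. The line, the growth medium with epidermal growth factor, hydrocortisone, insulin, transferrin and selenite, and the near-confluent state at the start of treatment are shared by all groups. The labels give neither the dose in units, the vehicle, nor what Nnm stands for. HK-2 is 1 immortalised line and each array stands for 1 culture.

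Tubule cells that fill a dish slow their division, and the mRNAs for DNA replication and mitosis, which are made mainly in cycling cells, fall as they do so. The same cells carry transporters of the brush border, make glucose in the fasting kidney, and answer metals and electrophiles through metallothioneins, the metal-binding proteins under the factor MTF1, and through antioxidant enzymes under the factor NRF2. The control cells give the change of a culture with vehicle over the same interval.

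Values are log2 expression values, so a difference of 1 is a doubling. Each SE is that of the change from 24 h to 48 h, taken from a spread pooled over the pairs of both treatments, and a gene was called changed at an adjusted p under 0.05 (limma, Benjamini and Hochberg over 10907 genes). "Rose" and "fell" are used only of called genes. Between 40.4% and 40.8% of the probe sets lay above a log2 value of 4 on each array. For the actin control, 5′ minus 3′ probe set values were -1.09 to -1.17 on the 4 arrays of replicate 2 and -0.74 to -0.86 on the others, at both times and in both treatments. The labels do not say whether cultures of 1 number share a passage or day, so p-values measure the spread between these arrays.

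Between 24 h and 48 h of Nnm, 347 genes rose (3.18% of those tested) and 276 fell (2.53%), 623 in all (5.71%). Of these, 49 rose and 24 fell by more than 2-fold. The 3 values at 48 h lay wholly outside the 3 at 24 h for 318 of the 623, against 1387 of all genes tested (12.7%). In control cells 688 genes rose over the same interval (6.31%) and 840 fell (7.70%), 1528 in all (14.0%). Both comparisons called 265 genes, which is 42.5% of the Nnm calls and 17.3% of the control calls, and 258 of them moved the same way. These comparisons share no arrays, but for each gene both use the same spread, pooled over the treatments, so their calls are not independent. Of the 623 Nnm calls, 552 had a control change of the same sign.

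The number called in the treated cells depends on how the spread was estimated. Fitted on the 6 Nnm arrays alone the comparison called 0 genes, with 2115 at an unadjusted p under 0.05 (2881 in the fit over both treatments). Without the pairing it called 13, and with the spread set separately for each treatment, 176 (a setting added once the results were known). The Nnm pairs varied more than the control pairs, with a median SD within pairs of 0.14 against 0.10. The pooled SE therefore tends to understate the spread of the Nnm pairs. Leaving out Nnm replicate 1, 2 or 3 gave 0, 1534 and 16 calls, and leaving out control replicate 1, 2 or 3 gave 229, 211 and 206. Of the 84 genes named by rule and called here, 0, 74 and 9 kept their call without Nnm replicate 1, 2 or 3, 45, 48 and 44 without control replicate 1, 2 or 3, and 36 with the spread set per treatment. Across genes, the changes of Nnm pairs 1 and 3 correlated at 0.62 and those of pair 2 with pairs 1 and 3 at 0.34 and 0.25, while pair 2 correlated with the 3 control pairs at 0.41 to 0.55 and pair 3 with them at 0.15 to 0.18. These are correlations across genes, which are not independent replicates, and they come with no test.

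Among the 12 largest rises were receptors, transporters and enzymes known from tubule epithelium beside genes known from other tissues. BLNK, an adaptor of the B-cell receptor, read 5.18, 6.97 and 4.53 at 24 h and 8.05, 8.63 and 7.23 at 48 h, so that every treated culture was higher at 48 h. The change over the 3 pairs was 2.41 ± 0.28 (pooled SE, 5.31-fold, adjusted p = 0.0128), and in control cells BLNK rose by 3.64. The control arrays read 2.67 to 4.49 at 24 h and 7.00 to 8.02 at 48 h, so the ranges of the treatments overlapped at 48 h.

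The second largest estimate was at the probe set assigned to MIR146A, the gene of a microRNA that restrains NF-kB signalling. The array labels the longer primary transcript, and the mature microRNA was not measured. Both mature forms are given here, from RefSeq (GRCh38.p14, plus strand, chr5:160485372-160485393 and chr5:160485408-160485429), because the measured transcript carries them. Capitals mark the seed, bases 2 to 8.
hsa-miR-146a-5p: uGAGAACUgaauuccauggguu
hsa-miR-146a-3p: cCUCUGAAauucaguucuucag
The MIR146A probe set read 3.30, 3.52 and 3.02 at 24 h and 6.26, 5.40 and 5.29 at 48 h under Nnm. Control arrays lay between 2.77 and 3.77 at both times. The value of 4 served as the floor for a measured gene, so only the 3 Nnm arrays at 48 h measured this transcript, and it entered the test only through them. Against the floor it was at least 3.13-fold higher at 48 h than at 24 h. The fitted change (2.36, adjusted p = 0.0106) rests on values below the floor and gives no size, and the difference from the control change did not pass (adjusted p = 0.0768).

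Transporters and a gluconeogenic enzyme of the proximal tubule were also among the rises. SLC3A1, the heavy subunit of the brush-border cystine transporter, read 7.65, 9.13 and 7.76 at 24 h and 9.93, 10.39 and 9.37 at 48 h, with no overlap between times. Its rise of 1.72 ± 0.17 (adjusted p = 0.0111) stood beside a rise of 0.93 in control cells. SLC23A1, the sodium-dependent transporter that takes up vitamin C in the tubule, read 3.56, 4.49 and 2.56 at 24 h and 5.82, 5.46 and 4.70 at 48 h, a rise of 1.79 ± 0.29 (adjusted p = 0.0227), and changed by 0.52 in control cells, which did not pass.
PCK1, the cytosolic enzyme that commits carbon to glucose synthesis, read 3.42, 4.20 and 4.04 at 24 h and 5.27, 5.02 and 5.55 at 48 h. It rose by 1.39 ± 0.18 (adjusted p = 0.0142), with 24 h values below or near the floor, so the size is read in part against background. The 6 control arrays lay at 2.85 to 3.28, below the floor at both times. PCK1 thus entered the test only through the Nnm arrays, and its control change gives no size. The difference from the control change did not pass (adjusted p = 0.125).

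The other large rises were TSHR, the thyrotropin receptor (1.98 ± 0.42, adjusted p = 0.0422), CES4A, a carboxylesterase (1.86), MAN1C1, a mannosidase of the Golgi (1.77), and MACROD2, an enzyme that removes ADP-ribose (1.58). TMEFF2, a membrane protein with follistatin and EGF-like modules, rose by 1.54, DDIT4L, an inhibitor of mTOR signalling, by 1.52, and TSPAN2, a tetraspanin, by 1.47. Taking the mean of probe sets gave smaller changes for TMEFF2 (0.87) and MACROD2 (1.32), both still called. TSPAN2 read 4.30, 6.54 and 4.72 at 24 h and 6.49, 6.79 and 6.69 at 48 h, so its rise came from replicates 1 and 3, and replicate 2 already stood near the control level of 6.54 to 6.81 at 24 h. For TMEFF2 the 24 h values of 4.95, 6.35 and 3.72 and 48 h values of 6.32, 7.65 and 5.66 overlapped between times, although each pair rose, as the choice required. At 24 h, 1 of the 3 Nnm arrays was above the floor for TSHR, SLC23A1 and DDIT4L, so their changes are also read in part against background. Of the 12 rises, 9 had no overlap between times (12.7% of all genes tested). Their choice as the largest calls with 1 sign in all pairs favours such a count. In control cells 5 of them (BLNK, MACROD2, MAN1C1, SLC3A1 and DDIT4L) rose as well, beside 6.31% of all genes. The difference from the control change passed for none of the 12 (adjusted p 0.0768 to 0.838).

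**Figure D1:**
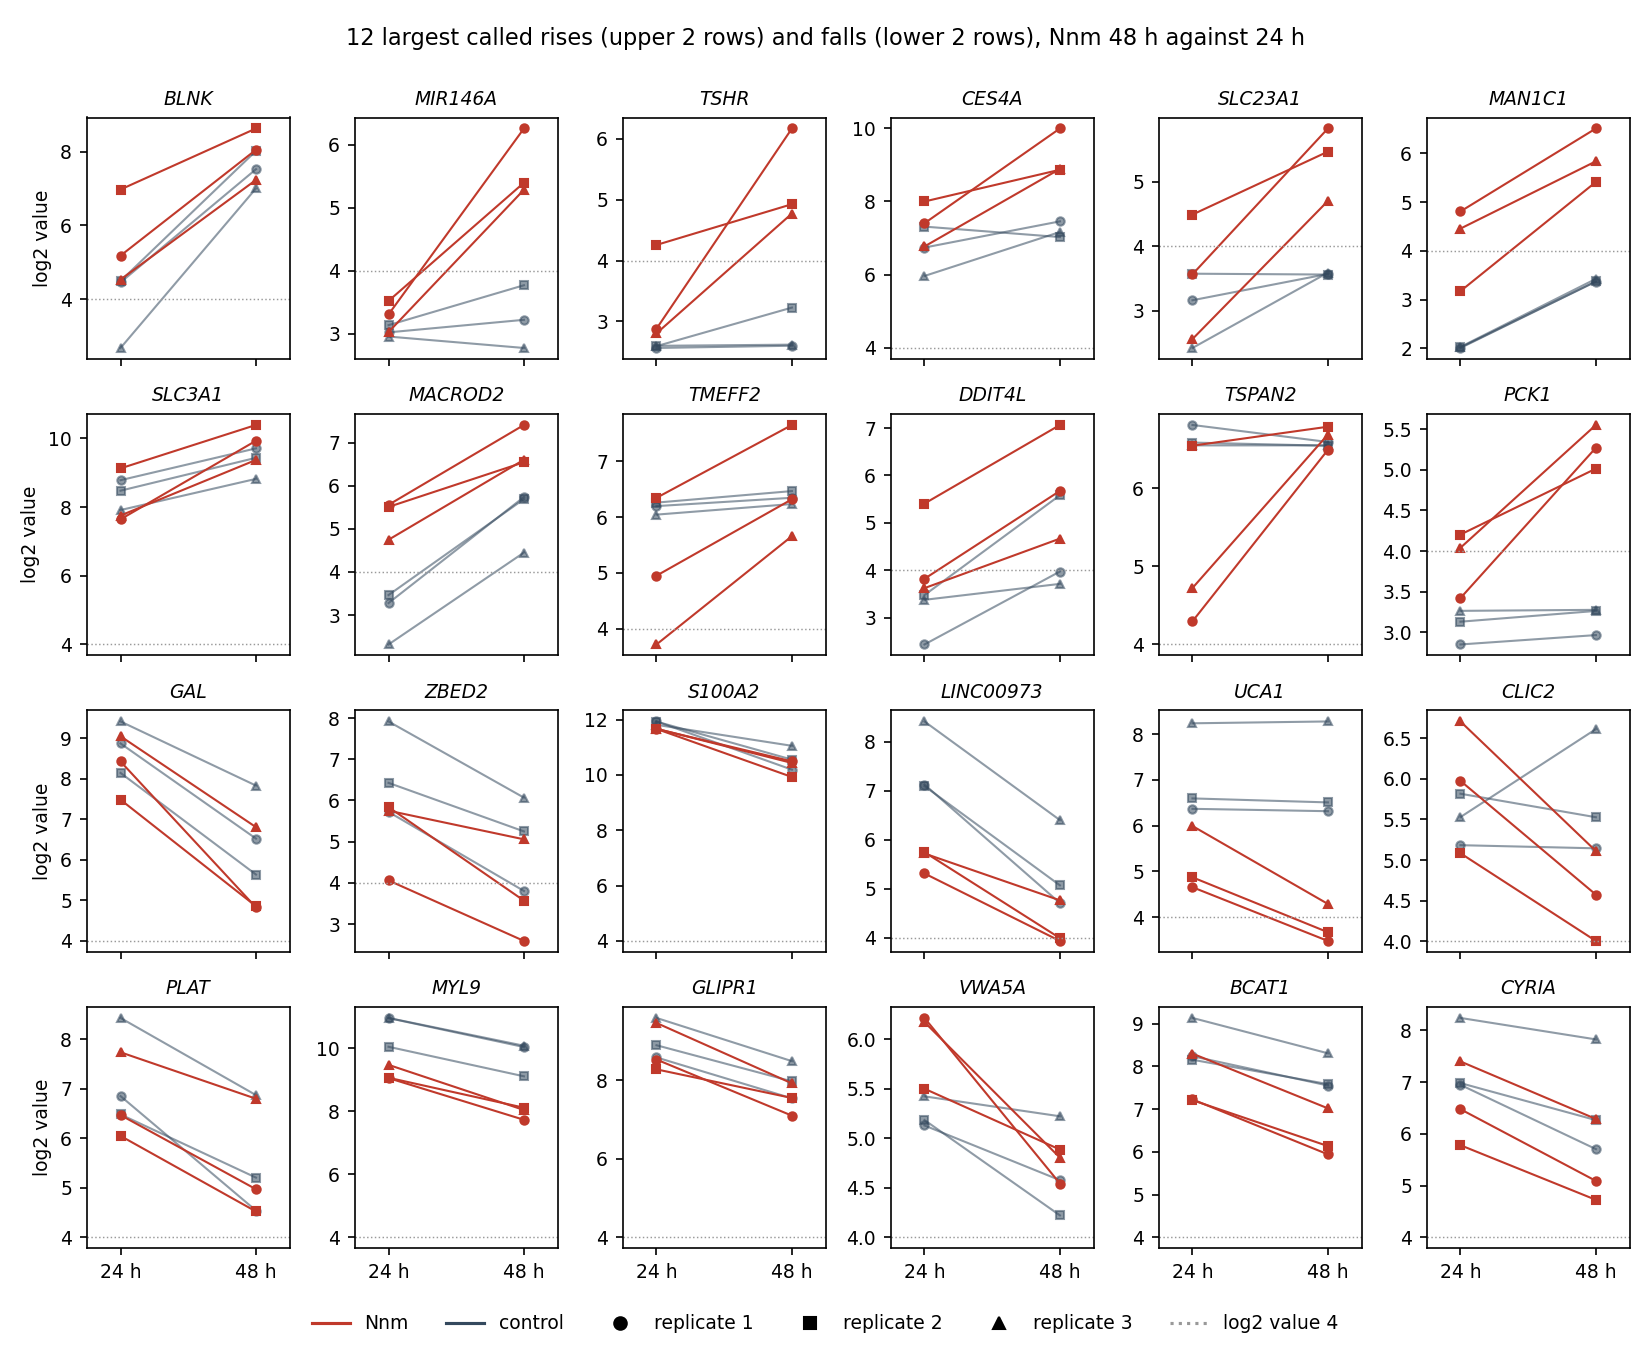
Log2 expression value (y axis, a separate scale in each panel) of the 12 largest called rises and 12 largest called falls at 24 h and 48 h. Each line joins the arrays of 1 replicate number in Nnm-treated (red) or control (grey) cells. BLNK rises and GAL falls in both treatments, whereas MIR146A reads 5.29 to 6.26 in Nnm at 48 h and is below the floor of 4 on all other arrays.

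The largest fall was that of GAL, which encodes the neuropeptide galanin. It read 8.43, 7.48 and 9.05 at 24 h and 4.83, 4.86 and 6.81 at 48 h. This was a fall of 7.07-fold over the 3 pairs (change -2.82, pooled SE 0.27, adjusted p = 0.0111). In control cells GAL fell by 2.14. Of the 12 largest falls, chosen in the same way, 8 had no overlap between times under Nnm (12.7% of all genes tested). In control cells 9 of the 12 also fell (7.70% of all genes). The adjusted p for the difference between treatments was 0.0768 to 0.882.

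MYL9, the regulatory light chain of myosin, read 9.06, 9.07 and 9.48 at 24 h and 7.74, 8.12 and 8.05 at 48 h, a fall of 1.24 (SE 0.10, adjusted p = 0.00805), and fell by 0.91 in control cells. S100A2, a calcium-binding protein, fell by 1.38 in treated and by 1.29 in control cells. PLAT, the tissue plasminogen activator, fell by 1.32 and by 1.71. BCAT1, the cytosolic branched-chain aminotransferase, read 7.23, 7.21 and 8.30 at 24 h and 5.94, 6.14 and 7.02 at 48 h, and fell by 1.21 (SE 0.09) against 0.69 in control cells. CYRIA, an inhibitor of RAC1-driven actin assembly, fell by 1.18, GLIPR1 by 1.23, ZBED2 by 1.48 and the long noncoding RNA LINC00973 by 1.36, and all 4 fell in control cells too. The call of CYRIA in Nnm was lost with the mean of probe sets (-0.79).

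For UCA1, CLIC2 and VWA5A no fall was called in control cells. UCA1, a long noncoding RNA first described in bladder carcinoma, read 4.65, 4.87 and 5.99 at 24 h and 3.48, 3.67 and 4.29 at 48 h. Its fall was 1.36 (SE 0.12, adjusted p = 0.00805), while the control arrays read 6.31 to 8.28 with a change of -0.03. UCA1 was thus lower in every treated array than in every control array at both times, and ended near or below the floor in the treated cells. CLIC2, of the chloride intracellular channel family, read 5.97, 5.08 and 6.71 at 24 h and 4.57 and 5.11 in replicates 1 and 3 at 48 h, with replicate 2 at the floor, values that overlap by a narrow margin, and its control change was 0.25. The fall of VWA5A was 1.22, with a control change of -0.57 that did not pass.

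Metallothionein mRNAs were lower at 48 h than at 24 h in every treated culture. Of 10 tested members of the metallothionein and zinc transport list, 3 fell and 0 rose (2.53% of all genes fell), with a median change of -0.50 beside -0.0049 for all genes tested. Their median change in control cells was -0.26, with 0 called. All 7 metallothionein genes proper were lower at 48 h in each of the 3 pairs, with no overlap between times (44.6% of all genes tested had 1 sign in the 3 pairs and 12.7% no overlap). MT1M read 9.80, 9.35 and 9.80 at 24 h and 8.18, 8.94 and 8.97 at 48 h, a fall of 0.95 (SE 0.20, adjusted p = 0.0429). MT1G read 12.20, 11.70 and 12.20, then 10.99, 11.38 and 11.57, a fall of 0.72 (SE 0.16, adjusted p = 0.0448). MT1E fell by 0.58 (SE 0.13, adjusted p = 0.049). The zinc exporter SLC30A1, another target of MTF1, changed by -0.08 and MTF1 itself by 0.04, and neither passed. Metallothionein genes are near-identical copies, so their probe sets may share signal and are not independent readings. The 3 calls were lost with the spread set per treatment (0 of 10), without Nnm replicate 1 or 3 and without any 1 control replicate (0 each), and were 7 without Nnm replicate 2. The median was -0.29 without replicate 1.

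The promoter of MT2A, the most widely expressed member of the family, shows the element through which metals act. It read 14.92, 14.76 and 14.87 at 24 h and 14.25, 14.51 and 14.60 at 48 h, a change of -0.40 that did not pass (adjusted p = 0.0691). The 250 bases before its start (RefSeq, GRCh38.p14, plus strand, chr16:56608334-56608583) are printed with the core of the metal response element in capitals, searched as TGCACNC or TGCGCNC on both strands.
MT2A: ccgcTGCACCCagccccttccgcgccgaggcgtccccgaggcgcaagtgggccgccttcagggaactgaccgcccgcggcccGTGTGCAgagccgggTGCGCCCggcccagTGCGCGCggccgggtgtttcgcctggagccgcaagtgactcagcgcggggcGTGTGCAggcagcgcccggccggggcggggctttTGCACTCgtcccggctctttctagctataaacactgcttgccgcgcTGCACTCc
The window holds 7 matches. A match was found in 5 of the 8 promoters of the list present in the table (7 of 12 genes) and in 24.8% of all 35116 promoters of that length. A match describes letters and is no evidence of binding.

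Antioxidant genes under NRF2 had mostly negative estimates in the treated cells, 3 of 21 being positive, and estimates of both signs in control cells (12 positive). Of 21 tested, 4 fell and 0 rose, with a median change of -0.35, while in control cells 1 fell and the median was 0.02. Over all genes tested, 2.53% fell in Nnm and 7.70% in control cells. NQO1, the quinone reductase, read 12.78, 12.15 and 12.55 at 24 h and 11.87, 11.06 and 11.94 at 48 h, a fall of 0.87 (SE 0.11, adjusted p = 0.0152). It fell in control cells as well (by 0.53), and the control arrays lay lower at both times (10.46 to 11.21).
TXNRD1, the cytosolic thioredoxin reductase, read 13.76, 12.69 and 13.83 at 24 h and 13.29, 12.30 and 13.22 at 48 h, a fall of 0.49 (SE 0.08, adjusted p = 0.0221). The 6 control arrays read 11.64 to 11.86, below every treated array at either time. GSR, which regenerates reduced glutathione, read 10.02, 9.18 and 10.17 and then 9.29, 8.91 and 9.22, and fell by 0.65 (SE 0.13, adjusted p = 0.0396), and the control arrays read 8.96 to 9.51. ME1, which supplies NADPH, fell by 0.47, a call lost with the mean of probe sets (-0.41).
The haem oxygenase HMOX1 did not pass (change -1.07 ± 0.37, adjusted p = 0.129). It read 9.92, 7.41 and 9.83 at 24 h and 8.01, 7.70 and 8.24 at 48 h, so that replicates 1 and 3 were lower at 48 h and replicate 2 was low at both times. The cystine importer SLC7A11 read 9.70, 7.67 and 10.02, then 8.67, 7.64 and 8.37, the same pattern, and its change of -0.91 did not pass either. No member's difference from the control change passed (lowest adjusted p = 0.131). The count of falls was 0 without Nnm replicate 1 or 3, 9 without Nnm replicate 2 (with 1 rise), 2, 1 and 1 without control replicate 1, 2 or 3, and 2 with the spread set per treatment. ABCC3, an exporter of conjugates, had the highest value of the list, with a change of 0.89 that was not called.

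All 20 proteasome genes had negative estimates in both treatments. In Nnm 3 fell (2.53% of all genes fell) and the median change was -0.25, and in control cells 6 fell (7.70% of all genes) with a median of -0.29. PSMB3 fell by 0.58, PSMB6 by 0.55 and PSMA7 by 0.46, with control changes of -0.41, -0.35 and -0.36. These genes encode subunits of the core particle that degrades ubiquitinated proteins. With the spread set per treatment 0 of the 20 were called in Nnm, and without Nnm replicate 1, 2 or 3 the counts were 0, 7 and 0. Without any 1 control replicate they were 0 in Nnm, and 0, 1 and 0 in control cells.

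**Figure D2:**
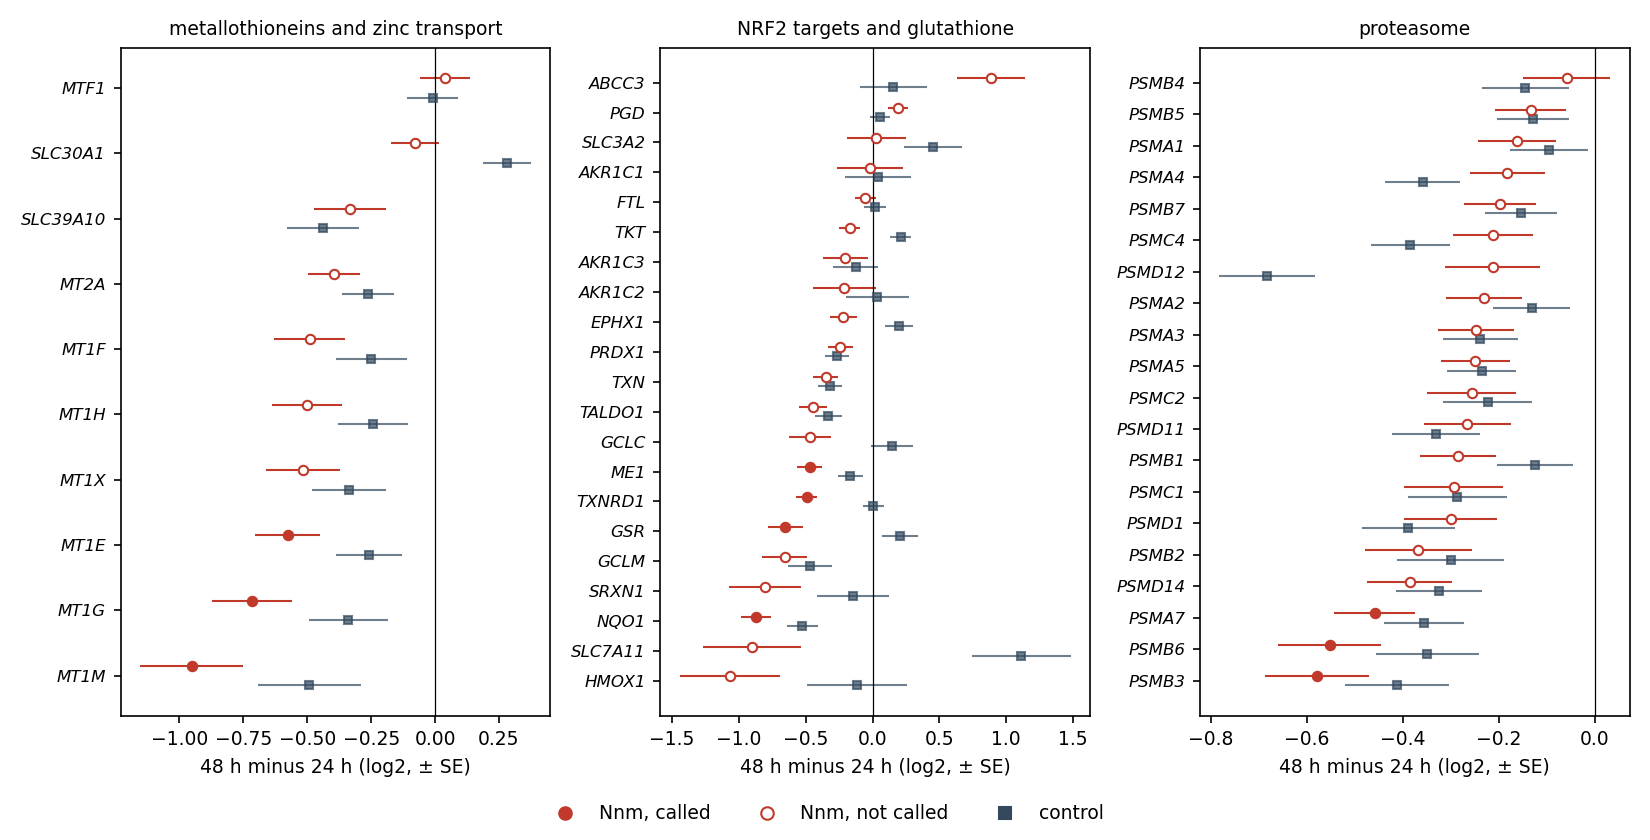
Change from 24 h to 48 h (log2, bars show SE) of each tested gene of the metallothionein, NRF2 and proteasome lists in Nnm-treated (red, filled where called) and control (grey) cells, on a separate scale in each panel. The NRF2 targets lie mostly left of 0 in Nnm (median -0.35) and around 0 in control cells (median 0.02), while the proteasome genes overlap between treatments.

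Cell division genes were lower at 48 h in control cells and showed no common course in treated cells. Of 39 mitosis and spindle genes, all of them tested, 20 fell in control cells, with a median change of -0.59, and 0 passed in either direction in Nnm, where the median was 0.14. Over all genes tested 7.70% fell in control cells. The 20 control falls were 0, 2 and 0 without control replicate 1, 2 or 3 and 0 with no replicate block, while their median stayed at -0.58 to -0.62. By pair, the median in control cells was -0.62, -0.53 and -0.60, and in Nnm it was 0.22, -0.26 and 0.44. All 39 genes were lower at 48 h in each control pair. In Nnm 29 of 39 were higher at 48 h in pair 1, 0 in pair 2 and 39 in pair 3. The treated cultures therefore differed in sign, with replicate 2 on the side of the control cells. The estimate of the difference between treatments was positive for 39 of 39 genes and 35 had an unadjusted p under 0.05 (18.6% of all genes tested had one), but none passed after adjustment (lowest adjusted p = 0.125). Without Nnm replicate 2, 14 rose and the median was 0.33. Without replicate 3 the median was -0.07.

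CCNA2, cyclin A2, and CCNB1, cyclin B1, drive entry into mitosis. CCNB1 read 11.73, 12.22 and 12.01 at 24 h and 11.78, 11.96 and 12.34 at 48 h under Nnm, a change of 0.04 that did not pass. Control cells read 12.30, 12.36 and 12.69, then 11.41, 11.74 and 11.89, with no overlap and a fall of 0.77 (SE 0.12, adjusted p = 0.0119). CCNA2 read 10.75, 10.92 and 10.91, then 10.80, 10.67 and 11.59 under Nnm, and fell by 0.90 in control cells. At 48 h all 3 Nnm values of CCNA2 lay above the 3 control values (9.91 to 10.33), although at 24 h the groups overlapped. Genes with a negative estimate in Nnm were few: CENPE (-0.21), PLK1 (-0.18) and CDC20 (-0.12) were the lowest, and none was called.

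DLGAP5, a microtubule-binding protein of the mitotic spindle, had the smallest p of the list in Nnm. It read 10.33, 11.26 and 10.64 at 24 h and 10.76, 11.23 and 11.33 at 48 h, a change of 0.36 ± 0.13 (adjusted p = 0.139). In control cells it read 11.26, 11.38 and 11.54, then 10.64, 10.87 and 10.99, a fall of 0.56 (adjusted p = 0.0345). The difference, 0.92 ± 0.19, had an adjusted p of 0.126. Many mitotic promoters carry the cell cycle homology region, bound by the DREAM and MuvB complexes, and the 250 bases before the start of DLGAP5 (RefSeq, GRCh38.p14, minus strand, chr14:55191586-55191835) are shown with its core, TTTGAA on either strand, in capitals.
DLGAP5: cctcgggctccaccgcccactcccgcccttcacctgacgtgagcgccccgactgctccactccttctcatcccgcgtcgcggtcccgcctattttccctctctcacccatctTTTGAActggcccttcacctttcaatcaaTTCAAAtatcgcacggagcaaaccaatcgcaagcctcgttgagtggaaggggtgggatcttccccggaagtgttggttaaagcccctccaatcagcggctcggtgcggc
The core occurs 2 times in this window. It was found in 20 of the 39 promoters that the table holds for 32 of the list's genes (51.3%), against 13.3% of all 35116 promoters of the same length. As above, this is a description of sequence.

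Genes of DNA replication and nucleotide supply were divided in the same way, with smaller values. Of 43 tested, 14 fell in control cells (median -0.43, 7.70% of all genes tested fell) and 0 passed in Nnm (median 0.02). The 14 control falls were 0, 1 and 0 without control replicate 1, 2 or 3. The Nnm pairs had medians of 0.32, -0.30 and 0.08, with 40, 2 and 24 of the 43 genes higher at 48 h. The difference estimate was positive for 42 genes and had an unadjusted p under 0.05 for 20. MCM10, a factor that activates the replicative helicase, fell by 1.38 in control cells and changed by 0.09 in Nnm, where it read 7.41, 8.37 and 8.27 and then 8.12, 7.66 and 8.53. CCNE1, cyclin E1, was the lowest of the list in Nnm at -0.40 (adjusted p = 0.0567) and fell by 0.58 in control cells. PRIM1, the catalytic subunit of primase, was the highest at 0.47 (adjusted p = 0.0734). Without replicate 2, 5 genes of the list rose in Nnm. The DNA repair list (18 tested) gave 0 calls in Nnm with a median of 0.06, and 4 falls with a median of -0.28 in control cells. Its Nnm pairs had medians of 0.44, -0.26 and 0.05, with 5 rises and a median of 0.25 without Nnm replicate 2 and a median of -0.08 without replicate 1, and the control falls were 0, 1 and 0 without control replicate 1, 2 or 3. The 10 tested histone genes gave 0 calls in Nnm and 1 fall in control cells.

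**Figure D3:**
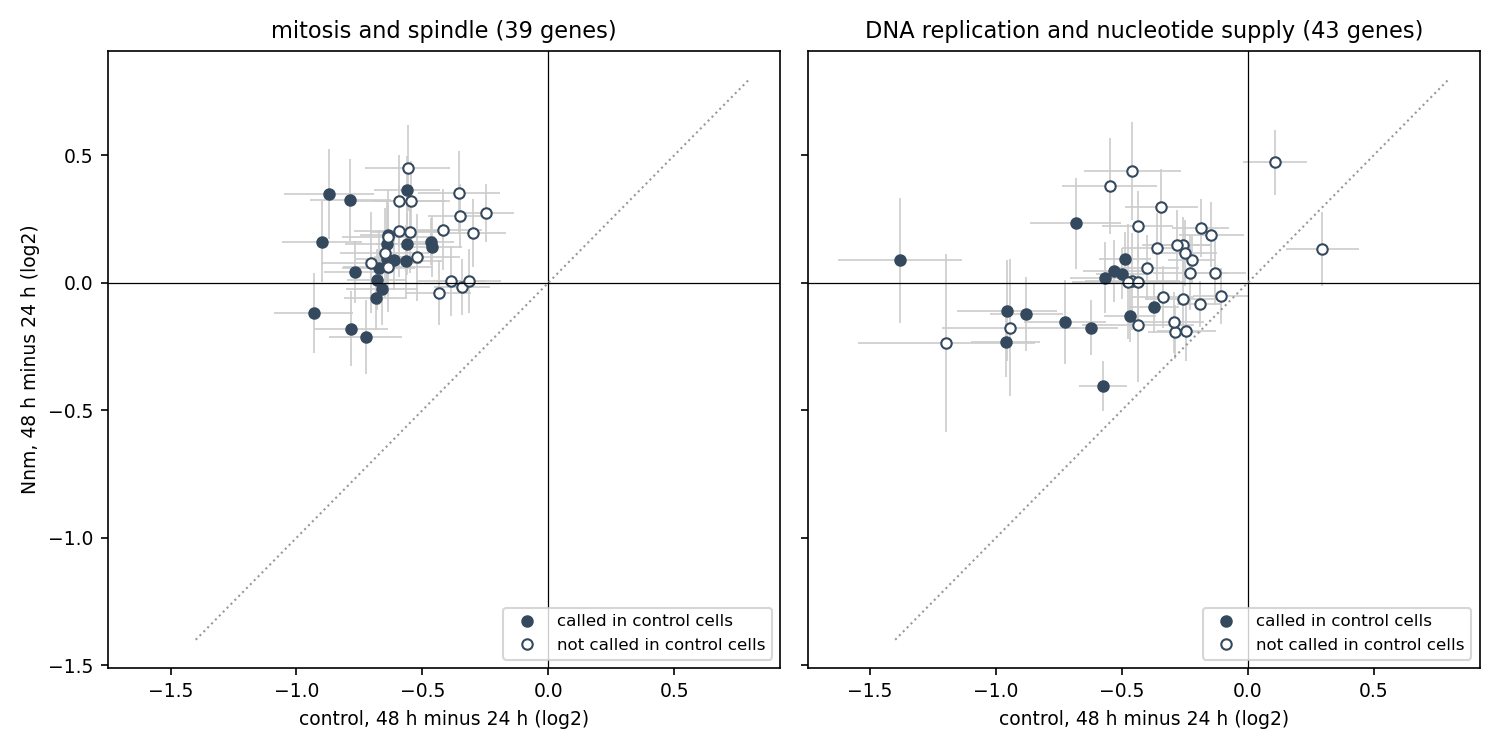
Change from 24 h to 48 h (log2) of each mitosis and each DNA replication gene in control cells (x axis) and in Nnm-treated cells (y axis), with SE as grey bars and filled points where the gene was called in control cells. The dotted line marks equal change. The mitosis genes all lie left of 0 and above the line, with medians of -0.59 in control cells and 0.14 in Nnm.

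Regulators of the cell cycle outside these lists moved singly. Of 14 cyclins and inhibitors of the G1 phase, CDKN1B (p27), an inhibitor of cyclin-dependent kinases, rose by 0.51 (adjusted p = 0.0244) and CDKN1A (p21) fell by 0.54 (adjusted p = 0.0321). In control cells neither passed (0.30 and -0.18). Among 23 p53 targets 3 fell (CDKN1A, TIGAR at -0.63 and TP53I3 at -0.42) and 0 rose, with a median of -0.10. Over all genes tested 2.53% fell and 3.18% rose in Nnm. TIGAR and TP53I3 fell in control cells too (by 0.53 and 0.39). Of 21 apoptosis genes, BCL2, which protects from cell death, rose by 0.95 and TNFSF10, the death ligand TRAIL, by 0.36, and 0 fell. The 2 kept probe sets of BCL2 pointed in opposite directions, and their mean (0.44) did not pass.

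In central metabolism most lists were near 0 and single enzymes were called. Of 21 glycolysis genes, PFKFB3, which makes the activator of phosphofructokinase, rose. It read 9.26, 9.56 and 8.87 at 24 h and 9.96, 10.34 and 9.78 at 48 h, a change of 0.80 ± 0.08 (adjusted p = 0.0111), and rose in control cells by 0.44. PFKP, a phosphofructokinase, fell by 0.50 and PKM, pyruvate kinase, by 0.38, and PFKFB4 (-0.59) and PGAM1 (-0.40), named after their values were seen, also fell. Of these 4 only PKM was called in control cells (-0.29). The 4 falls were lost without any 1 control replicate or without Nnm replicate 1 or 3, and were 3 without Nnm replicate 2. That of PKM was also lost with the mean of probe sets (-0.33). Over all genes tested 2.53% fell and 3.18% rose in Nnm. PCK1 was the 1 call among 5 gluconeogenesis genes.
Of 24 respiratory chain and ATP synthase genes, ATP5MC1 (-0.49) and NDUFA9 (-0.36) fell and 22 did not pass, with a median of -0.16. In control cells the median was -0.02 and 0 were called, and for 0 of the 24 did the change differ between treatments at an unadjusted p under 0.05. Among 10 genes of fatty acid synthesis ACLY, which makes cytosolic acetyl-CoA, fell by 0.52 and ME1 is the other. PPARA, a factor for fatty acid oxidation, rose by 0.41 (0.62 in control cells) in the list of the TCA cycle and fatty acid oxidation (22 tested). With the mean of probe sets its change in Nnm was 0.27 and did not pass. Cholesterol synthesis gave 0 calls among 21 genes (median 0.04), and 2 rose in control cells. Of 18 hypoxia genes LOX (-0.56), P4HA2 (-0.53) and NDRG1 (-0.53) fell and PFKFB3 rose (2.53% and 3.18% of all genes). LOX and P4HA2 fell in control cells too, by 0.44 and 0.65.

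Genes of stress and protein handling other than those above gave few calls. The ATF4 list, which covers amino acid supply, had 0 calls among 29 in Nnm (median -0.07), and in control cells 4 rose (median 0.32), among them DDIT3 at 1.58. Over all genes tested 6.31% rose in control cells and 2.53% fell in Nnm. Of 19 genes of the unfolded protein response, SDF2L1 fell by 0.83 (0.80 in control cells) and CRELD2 by 0.77. Among 12 heat shock genes BAG3, a co-chaperone, fell by 0.39. Ribosomal proteins (10 tested, median 0.04), ribosome biogenesis (21, median 0.03), aminoacyl-tRNA synthetases (17, median -0.10) and lysosome and autophagy genes (23, median -0.10) had 0 calls in Nnm. In the last of these 5 rose in control cells. Of 10 iron genes TFRC, the transferrin receptor, fell by 0.54 and by 0.39 in control cells.

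Of 32 collagens, laminins, integrins and proteases, 6 fell and 1 rose in Nnm (2.53% and 3.18% of all genes), against 10 and 4 in control cells (7.70% and 6.31%). MMP7, matrilysin, read 9.48, 10.06 and 9.36 at 24 h and 8.15, 9.00 and 8.33 at 48 h, a fall of 1.14 (SE 0.16, adjusted p = 0.017), and fell by 0.93 in control cells. PLAT, PLAUR (-0.57), COL6A1 (-0.49), ITGA3 (-0.45) and ITGA5 (-0.41) fell as well, each also in control cells. ITGB8, an integrin chain that activates latent TGF-beta, rose by 1.04 (SE 0.16, adjusted p = 0.0201), from 10.81, 12.23 and 11.46 to 12.32, 12.85 and 12.43. With the spread set per treatment the counts in Nnm were 1 rise and 1 fall, and without Nnm replicate 1 or 3 they were 0. They were 5 and 5 without Nnm replicate 2, and 1 rise with 3, 2 and 2 falls without control replicate 1, 2 or 3.
Of 7 keratins KRT8 fell by 0.66, and by 0.53 in control cells. PMEPA1 (-0.78) and TGFBI (-0.73) fell among 21 TGF-beta genes and also in control cells. DSP, desmoplakin, fell by 0.38 among 25 junction genes, and by 0.43 in control cells. DKK3, a secreted protein of the Dickkopf family, read 13.30, 12.61 and 13.59 at 24 h and 11.91, 11.63 and 12.75 at 48 h and fell by 1.07 (SE 0.11, adjusted p = 0.0111), while control arrays stayed at 13.15 to 13.63. RNF43, which removes Wnt receptors, rose by 0.69 in the same Wnt list (18 tested). The shares of all genes tested that fell and rose in Nnm were 2.53% and 3.18%.

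Innate immune genes rose singly. Of 11 complement genes CFB, complement factor B, rose by 1.22 (SE 0.14, adjusted p = 0.0128) and CLU, clusterin, by 0.69, and both rose in control cells by 1.12 and 0.87. Taking the mean of probe sets gave 0.65 for CFB in Nnm, still called. C5 read 6.70, 8.58 and 6.94, then 8.86, 9.03 and 8.40, and just missed the threshold (1.36, adjusted p = 0.0545). IL1B was the 1 rise among 21 NF-kB and cytokine genes (1.14, and 1.32 in control cells). TNFAIP3, the feedback inhibitor A20, read 4.32, 4.68 and 5.64, then 5.43, 5.30 and 6.40 (0.83, adjusted p = 0.0623), with a control change of -0.05. Of 21 interferon-stimulated genes IFI44L (0.92) and IFIT2 (0.53) rose and ISG15 fell (-0.47). In control cells IFI44L rose by 0.71 and ISG15 fell by 0.57. Beside these counts, 3.18% of all genes tested rose and 2.53% fell in Nnm.
The circadian list (16 tested) gave 3 rises, of HLF (1.17 ± 0.13, adjusted p = 0.0111), PER3 (0.85) and NR1D2 (0.40), factors of the output and repressor arms of the clock, beside 5 rises and 1 fall in control cells. HLF and NR1D2 were among those 5, at 0.87 and 0.48. Over all genes tested 3.18% rose in Nnm, and 6.31% rose and 7.70% fell in control cells. With the mean of probe sets NR1D2 did not pass in Nnm (change 0.47). SPRY1, a feedback inhibitor of growth factor signalling, rose by 0.82 among 16 MAP kinase genes and by 1.53 in control cells. The lists of EGF ligands and receptors (9 tested) and of AP-1, EGR and MYC (15 tested) had 0 calls in Nnm, against 2 falls and, in the second, 1 rise and 3 falls in control cells. Among 9 glucocorticoid targets PCK1 was the 1 rise, with FKBP5 at -0.20, and among 9 glucose-responsive genes ARRDC4 fell by 0.85 in Nnm. All control arrays of ARRDC4 read 2.37 to 3.60, below the floor, so its control change gives no size.

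Among transporters of tubule cells (20 tested) KCNJ15, a potassium channel, rose by 0.63, as did KCNJ16 (0.43, named after its values were seen). SLC26A2, a sulfate transporter, fell by 0.82 and SLC20A1, a phosphate transporter, by 0.71. In control cells KCNJ15 rose by 0.46, KCNJ16 by 0.56, and SLC26A2 fell by 1.07. Of 10 xenobiotic genes GSTP1, a glutathione transferase, fell by 0.86 (SE 0.11, adjusted p = 0.0142) beside NQO1, and both fell in control cells. Of 21 kidney injury markers CLU rose, and KRT8 and ANXA2 (-0.59) fell, each of them called the same way in control cells. S100A2 was the 1 call among 9 S100 genes. For these counts the shares of all genes tested were 3.18% rising and 2.53% falling in Nnm.

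Markers of the labelled cell type were present in part. Of 15 proximal tubule markers with a probe set, DPP4, PAX8 and CDH6 were above the floor on at least 3 Nnm arrays, whereas the endocytic receptors LRP2 and CUBN lay near 2.58 and 2.10. DPP4, a brush-border peptidase, read 11.92, 12.41 and 11.89, then 12.97, 12.88 and 12.85, a rise of 0.83 (SE 0.12, adjusted p = 0.0182) with no overlap. CDH6, the cadherin of developing tubules, read 12.16 to 13.51 at 24 h and at least 13.61 on each array at 48 h (0.95, adjusted p = 0.0598). The log2 of the summed linear level of the proximal list ran from 13.44 to 14.25 at 24 h and from 14.47 to 14.76 at 48 h under Nnm, and from 13.26 to 13.61 and 13.30 to 13.54 in control cells. Such a sum is set mainly by its brightest genes, here CDH6 (Nnm means 12.80 and 13.75), which did not pass, and DPP4 (12.07 and 12.90).
Markers of other nephron segments and cells were partly present in the same line. CDH16, of the distal list (5 of 12 above the floor), rose by 1.09, the only call of the list in Nnm. Of its 5 tested members 3 had positive estimates. Mean AQP3 went from 8.08 to 7.41, and SLC12A1 stayed at the floor (4.03 and 4.01). The summed level of the list ran from 10.62 to 11.15 and then 11.18 to 11.76 under Nnm. In control cells CDH16 rose by 0.66 and the sum was at most 10.43 at 24 h and at most 10.99 at 48 h, again with no overlap between times. The podocyte list (3 of 5 above the floor, 0 called) ran from 13.05 to 13.30 and then 12.58 to 12.84, and in control cells from 12.78 to 13.33 and then 12.99 to 13.22. This sum is almost wholly PTPRO (Nnm means 13.10 and 12.65), beside SYNPO (7.14 and 6.66) and PODXL (6.65 and 6.25). Of 12 fibroblast markers 5 were above the floor, among them DCN and VIM, COL1A1 fell by 0.88 (and by 0.68 in control cells), and the summed level overlapped between times. That sum is mostly VIM (Nnm means 14.34 and 14.23). With the mean of probe sets the change of COL1A1 in Nnm was -0.52 and did not pass. The endothelial list had 1 of 8 above the floor and the leukocyte list 0 of 6. In a culture, fewer cells of a kind and less RNA per cell cannot be told apart, and the part of these markers in the other results was not tested.

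**Figure D4:**
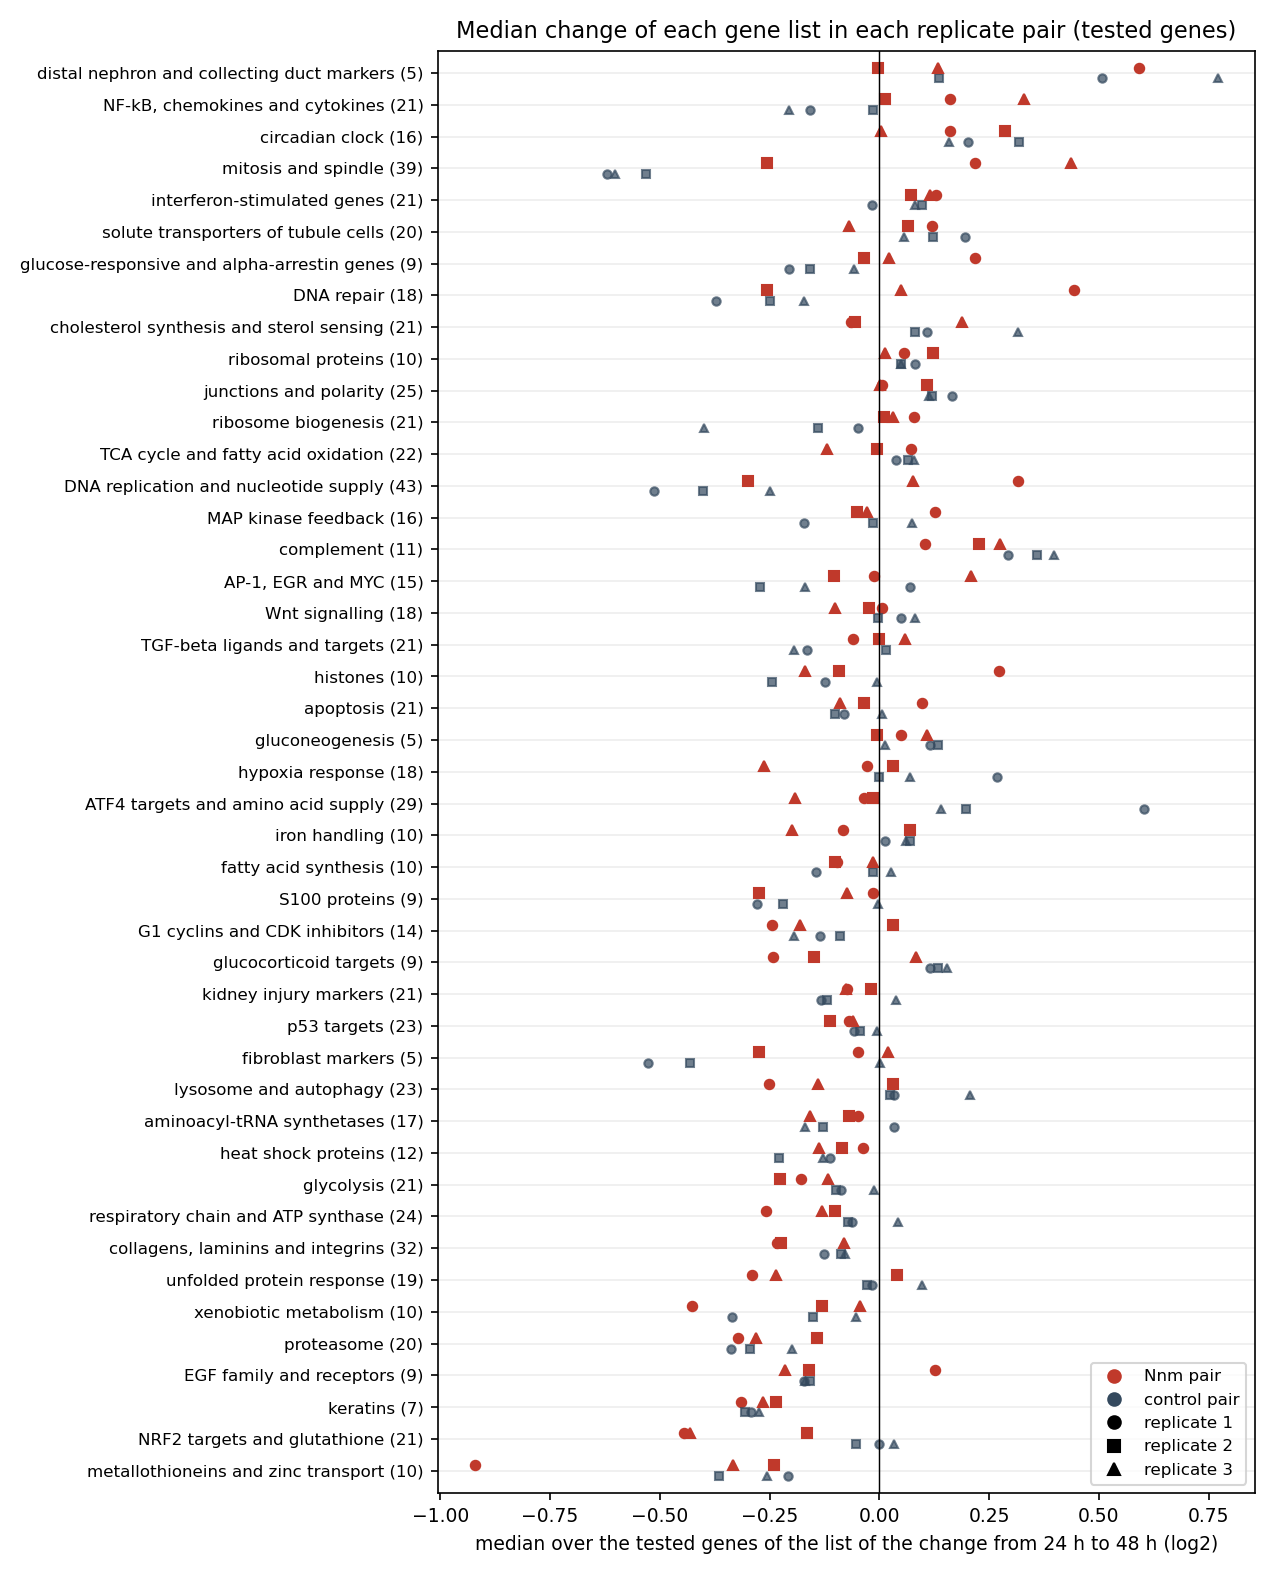
Median change from 24 h to 48 h (log2, x axis) over the tested genes of each list with at least 5 of them, given in brackets, for each Nnm pair (red) and control pair (grey), with the replicate number as the marker shape. Lists are ordered by their change in Nnm. The mitosis list has control pairs at -0.53 to -0.62 and Nnm pairs on both sides of 0.

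The genes for which the largest effects of Nnm against control had been seen in these arrays mostly had small estimates between the times under Nnm. That list of 33 genes was chosen on these samples, so its levels are a description. In Nnm 2 of the 33 fell (UCA1 and THEMIS2) and 0 rose, beside 2.53% and 3.18% of all genes tested. In control cells 6 rose and 8 fell (6.31% and 7.70% of all genes). A change under 0.5 in either direction was seen for 24 in Nnm and 14 in control cells. The share of all genes with so small a change was not counted, and the SD of the change over genes was 0.30 to 0.44 in the Nnm pairs. Some members, such as COL4A3 (3.05 and 2.87) and CCDC146 (3.27 and 3.74), had Nnm means below the floor, so their changes are read in part against background. For 32 of the 33 the treated mean lay on the same side of the control mean at both times. The choice of the genes for such differences on these arrays favours this count. The treated array of replicate 2 lay between the other treated arrays and the control mean for 28 genes at 24 h and for 28 at 48 h.

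TXNIP, an arrestin-like inhibitor of thioredoxin that follows glucose supply, read 12.27, 11.81 and 12.23 at 24 h and 12.55, 11.74 and 12.19 at 48 h, a change of 0.06. In control cells it read 9.35, 9.85 and 9.15 and then 4.25, 6.70 and 7.14, a fall of 3.42 (SE 0.48, adjusted p = 0.0095). The difference between the changes of the treatments, 3.47 ± 0.68, did not pass (adjusted p = 0.125). SLC16A14, an orphan member of the monocarboxylate transporter family, read 9.17, 7.16 and 8.96, then 9.27, 7.24 and 9.35, and control arrays lay at 2.34 to 3.23.
DHRS2, a short-chain dehydrogenase, showed the widest spread: 8.65, 3.04 and 8.51 at 24 h and 9.29, 5.36 and 8.44 at 48 h, with control arrays at 2.41 to 2.80. Replicate 2 thus began near the control level and was higher at 48 h, while the others held. THEMIS2, an adaptor of immune receptor signalling, fell by 0.86 (SE 0.15, adjusted p = 0.0278), from 9.24, 6.83 and 8.73 to 8.06, 6.32 and 7.83, and stayed above the control arrays (5.09 to 5.86). In control cells PCLO, KDM7A, CHI3L1 and KRT20 rose by 1.15, 1.48, 1.21 and 1.69, beside changes of -0.24, -0.17, -0.39 and 0.16 in Nnm that did not pass.

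**Figure D5:**
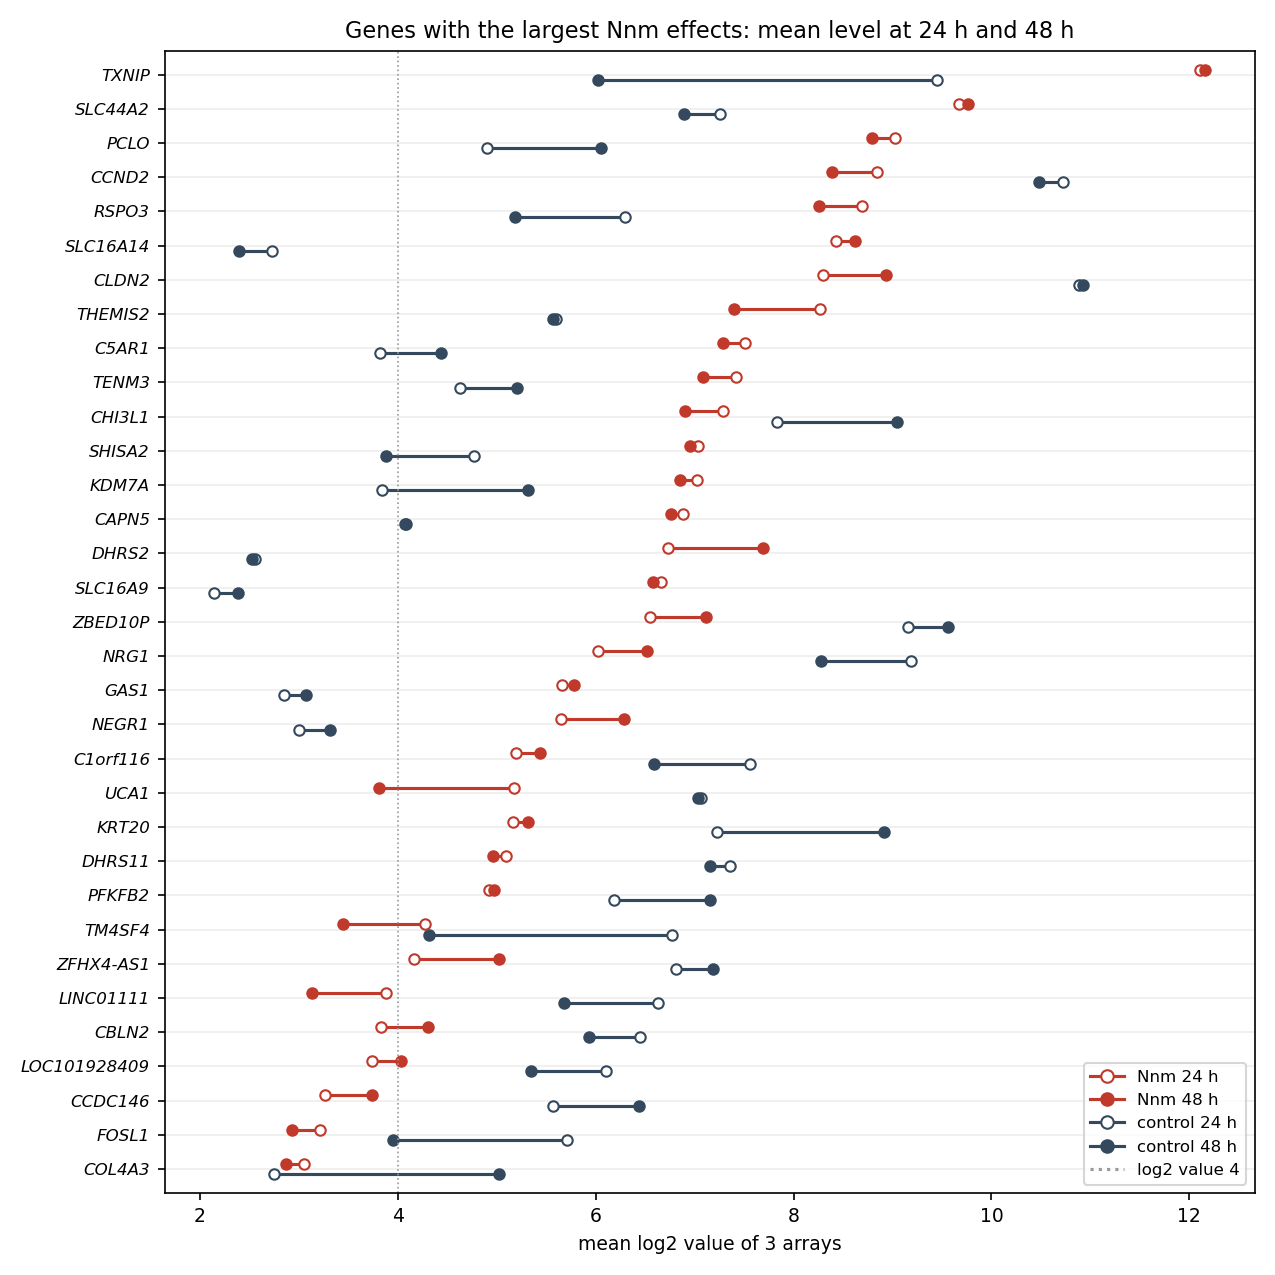
Mean log2 level (x axis, 3 arrays each) at 24 h (open) and 48 h (filled) of the 33 genes with the largest effects of Nnm, in Nnm-treated (red) and control (grey) cells, ordered by the treated level at 24 h. Most red pairs of points are close together, and TXNIP stays near 12 in Nnm while its control mean goes from 9.45 to 6.03.

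Whether a gene's change differed between treatments was tested as an interaction. It passed for 0 genes (limma, lowest adjusted p = 0.0614), with 2034 at an unadjusted p under 0.05 (18.6%), so no single gene is shown to have a time course of its own under Nnm. Without Nnm replicate 2 it passed for 830 genes, and with limma's trend and robust settings for 81. The 4 smallest p on the positive side were those of ST6GALNAC2, NOCT, FOSL1 and LYPD1. ST6GALNAC2, a sialyltransferase, read 2.92, 3.26 and 2.92, then 4.31, 4.86 and 4.05 in Nnm, and 2.89 to 2.92 on all control arrays. It was above the floor only on the Nnm arrays at 48 h and entered the test through them, and against the floor it was at least 1.33-fold higher there than at 24 h. NOCT, a clock-controlled phosphatase of NADPH, was above the floor only on the control arrays at 24 h (4.38 to 4.57). The other arrays of both treatments read 3.43 to 3.62, below the floor, so no levels are compared there.
FOSL1, a subunit of AP-1, fell by 1.76 in control cells, where 1 of 3 arrays was above the floor at 48 h, and was below it on all Nnm arrays. On the negative side COL4A3, a chain of basement membrane collagen, read 2.52 to 4.04 on the Nnm arrays and in control cells 2.52, 3.16 and 2.56, then 4.29, 5.79 and 5.00, at least 2.04-fold higher at 48 h against the floor. HDAC11, a histone deacetylase, fell by 0.39 in Nnm and rose by 0.65 in control cells (difference -1.05 ± 0.11, adjusted p = 0.0614), but its 2 kept probe sets pointed in opposite directions in Nnm. GPNMB, a glycoprotein of lysosomes and melanosomes, rose by 1.03 in control cells and changed by -0.10 in Nnm. LYPD1 rose by 0.54 in Nnm and fell by 0.87 in control cells. Its call in Nnm was lost in 12 of 18 settings, among them quantile normalisation and median centring. UCA1, described above, completes the set.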

How the data were processed

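Biotin-labelled cRNA from 12 HK-2 cultures was hybridised to Affymetrix arrays with 54675 probe sets. The deposited log2 values were made by the authors with GCRMA, a method that corrects background by probe sequence, equalises array distributions and summarises probes, per the submitters' processing notes. Which arrays were normalised together, and the version, are not given in the sources used here. The log base was inferred from the values. The platform annotation names 1 gene for 41091 probe sets, several for 1801 and none for 11721, beside 62 controls, and RefSeq (GRCh38.p14) held the gene ID of 41037. A probe set had to exceed 4 on any 3 arrays, which left 19832 with 1 gene. The brightest stood for its gene (10907 genes, 5320 of them with more than 1 probe set).

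All 12 arrays entered 1 limma fit (version 3.58.1, R 4.3.3, eBayes, two-sided, Benjamini and Hochberg), with a block for each of the 6 culture series (treatment by replicate number). The pairing comes from the labels' replicate numbers and was checked on residuals: 24 h and 48 h arrays of 1 number correlated at 0.48 to 0.70 in Nnm (other numbers -0.59 to 0.12) and at 0.52 to 0.60 in control cells (-0.37 to -0.22). The test was tried on simulated data.

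Named are the 12 largest called rises and falls with 1 sign in all pairs and a mean of at least 4 at the higher time, up to 3 genes of each of 50 lists with the smallest p, the 4 smallest p each way for the difference, and the response genes. The members and lists were chosen with earlier results of these data known. Outside the rule, ABCC3, CCNA2, CCNB1, CDC20, CENPE, COL6A1, DCN, DDIT3, GSR, ITGA3, ITGA5, KCNJ16, MCM10, MTF1, PFKFB4, PGAM1, PLAUR, PLK1, SLC30A1 and SLC7A11 were named after their values were seen. Of the 193 genes named by the rule, 73 have more than 1 kept probe set, with 1 direction in 59. Alternatives tried were the pairing, the filter, the mean of probe sets, normalisation, the variance model, and each replicate left out. Promoters and mature microRNAs are RefSeq's (GRCh38.p14). Plots used Python 3.11.15 and matplotlib 3.10.9.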

Additional observations from a re-analysis of the deposited data

Results flagged for a closer look

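Of 46 lists with at least 5 tested genes, 3 had a median change of one sign in all 3 Nnm pairs and of the other sign in all 3 control pairs. The difference between treatments (Nnm minus control) was -0.42 for the ATF4 and amino acid supply list, with Nnm pairs at -0.04, -0.02 and -0.19 and control pairs at 0.60, 0.20 and 0.14. It was 0.21 for ribosome biogenesis (Nnm pairs 0.08, 0.01 and 0.03, control pairs -0.05, -0.14 and -0.40) and 0.29 for NF-kB, chemokines and cytokines (Nnm pairs 0.16, 0.01 and 0.33, control pairs -0.16, -0.01 and -0.21). The difference was not tested for any of the 3 lists, and several of these pair values lie close to 0.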

How the results depend on the processing

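The 623 genes called in Nnm were 13 with no replicate block, 250 with the replicate number as 1 block over all arrays, 0 with the replicate block within the arrays of 1 treatment alone (the Nnm arrays here, the control arrays for the control count), 17 with no filter on low values (more genes tested), 1184 with trend and robust settings and 176 with the spread set per treatment. The 1528 control calls were 14, 924, 1863, 659, 2129 and 2724 under these settings, and 2732 with array weights. The 0 calls for the difference were 2 with the block over all arrays, 5 with no filter, 5 with the mean of probe sets, 81 with trend and robust settings and 5 with array weights. Leaving out 1 replicate at a time gave 0 to 1534 calls for Nnm, 68 to 2011 for control cells and 0 to 830 for the difference. Each such fit has fewer arrays, and beyond that the cause was not tested. Of the 84 named genes called, 36 kept their call with the spread set per treatment, 74 without Nnm replicate 2, 9 without replicate 3, 0 without replicate 1 and 5 with no replicate block. Of these 84 none turned sign under any of the 18 settings, whereas 13 named genes that were not called did under at least 1, TXNIP and KRT20 among them. The block settings, trend and robust, the spread per treatment and leaving out a control replicate leave the Nnm estimate unchanged. The 12 largest rises and falls were also chosen for 1 sign in all pairs, so leaving out an Nnm replicate cannot turn them. This count is therefore a weak check of the called genes. Quantile normalisation and median centring gave 658 and 629 calls in Nnm. The number of arrays, 3 per group, limits the precision.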

Other observations

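Probe sets without a single gene were tested apart. Of 1894 with no gene listed, 14 were called between 24 h and 48 h in Nnm and 55 in control cells, and of 952 with several genes 13 and 34 were called.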
